A study of Mus musculus with 12 samples.

Results

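The LIF receptor gene Lifr and 5 genes of the same signalling route, Il6st, Osmr, Lif, Stat3 and Socs3, were followed through mouse ovaries with and without tumors that form in the presence of a PgrBLsL allele. The genes were taken by their symbols in the array's annotation, with every probe set (a group of short probes that reads 1 gene). All 6 genes were measured, by 8 probe sets, among 10949 genes and 16376 probe sets in the table. They were proposed with earlier results of the same arrays in view, including group differences. Their levels and differences are therefore given as a description, without a test, and the standard errors (SE) only describe the spread.

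Each of the 12 ovary samples was hybridised to 1 array, and all came from female mice aged 23 weeks. Vaginal smears had placed the mice in diestrus, a phase of low estrogen in the cycle. The 6 control mice were Pgrcre/+ and had no tumor. The other mice were Pgrcre/+PgrBLsL/+ and gave ovaries with tumors, 3 at stage I and another 3 at stage II. All mice thus carried Pgrcre, a Cre recombinase gene placed at the progesterone receptor locus, which acts in cells that use that locus. No mouse had the PgrBLsL allele without a tumor stage, so allele and tumor cannot be told apart against controls, and both stages were set against the same control arrays. The titles call the ovaries of a group bioreplicates.

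Cytokines of the IL6 type, among them LIF and oncostatin M, signal through receptor complexes that share the chain gp130, the product of Il6st. LIF joins gp130 to the LIF receptor, and oncostatin M joins it to the oncostatin M receptor or, in some settings, to the LIF receptor. Janus kinases bound to these chains then phosphorylate STAT3, which enters the nucleus and switches on target genes, Socs3 among them. SOCS3 binds gp130 and damps the signal. In the mouse uterus LIF is required for implantation, and in liver the same route drives the acute-phase response. The mouse Lifr gene also gives a soluble receptor that circulates in serum.

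The sequences around the annotated starts of Lifr and Socs3 are shown because Lifr had the widest differences of the 6 genes and Socs3 is the textbook target of the route. They are RefSeq sequences of build GRCm38.p6 and hold 300 bases each, most of them before the start. Lifr has a pair of annotated starts, both on the plus strand of chromosome 15, at chr15:7129322-7129621 and chr15:7140292-7140591. Socs3 lies on the minus strand of chromosome 11, at chr11:117969317-117969616. Capitals mark CG dinucleotides in Lifr and the match to the STAT motif TTCNNNGAA in Socs3.
Lifr, upstream start: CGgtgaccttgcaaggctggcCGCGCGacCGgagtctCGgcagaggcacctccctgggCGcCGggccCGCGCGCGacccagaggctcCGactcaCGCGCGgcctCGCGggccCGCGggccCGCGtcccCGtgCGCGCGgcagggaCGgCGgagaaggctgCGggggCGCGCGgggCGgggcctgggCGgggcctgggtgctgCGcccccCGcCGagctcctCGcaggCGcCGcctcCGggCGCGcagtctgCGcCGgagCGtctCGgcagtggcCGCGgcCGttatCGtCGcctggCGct
Lifr, downstream start: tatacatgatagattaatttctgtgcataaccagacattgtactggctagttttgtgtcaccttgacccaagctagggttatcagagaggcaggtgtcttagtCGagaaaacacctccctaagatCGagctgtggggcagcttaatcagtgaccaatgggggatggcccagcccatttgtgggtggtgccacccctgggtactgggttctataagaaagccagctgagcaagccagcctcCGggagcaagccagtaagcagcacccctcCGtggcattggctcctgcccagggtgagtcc
Socs3: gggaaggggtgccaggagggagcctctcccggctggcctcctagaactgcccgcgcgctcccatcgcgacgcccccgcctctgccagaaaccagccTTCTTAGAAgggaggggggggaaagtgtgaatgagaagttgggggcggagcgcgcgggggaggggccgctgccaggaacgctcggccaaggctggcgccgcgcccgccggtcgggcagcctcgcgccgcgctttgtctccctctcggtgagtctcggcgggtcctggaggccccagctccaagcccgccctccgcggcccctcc
The upstream Lifr sequence held 53 CG dinucleotides and 81.3% G or C, against 4 and 53.3% at the downstream start and a median of 7 and 52.7% over 32851 mouse promoters. The motif TTCNNNGAA, which reads the same on both strands, occurred in 8.3% of all promoters of this length and once in that of Socs3, 154 bases before the start. It was not found in the windows of the other members. ACANNNTGT, a core of the progesterone response element that also reads the same on both strands, occurred in 6.85% of all promoters and in none of the 7 windows of the members. A match describes letters, and no match says only that these letters are not in the window. The Lifr start that the array probes follow was not analysed here.

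The deposited arrays were alike in scale, with medians between 7.09 and 7.15 (log2) and correlations between arrays of 0.967 to 0.9971. Ovarian identity was visible in every sample. Inha, the inhibin alpha subunit of granulosa cells, lay between 12.15 and 13.73, and Zp3, a zona pellucida protein of the oocyte, between 8.10 and 9.59. An ovary array reads a mixture, in which fewer cells of a type and less RNA per cell cannot be told apart. Ovgp1, an oviduct protein, was high in control replicate 5, stage I replicate 2 and stage II replicate 2, and the results are also given without these arrays.

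Lifr, the ligand-binding chain for LIF, separated the 3 groups completely. In controls its log2 level ran from 6.08 to 6.29 with a median of 6.14. The stage I arrays read 8.65, 6.75 and 7.16 in replicates 1, 2 and 3, and the stage II arrays read 10.80, 10.81 and 10.81. Every stage I ovary lay above every control, every stage II ovary lay above every stage I ovary, and the gap between the highest stage I and the lowest stage II array was 2.16. The control mean was 6.17 ± 0.10 (SD, n = 6). The stage I mean was 7.52 ± 1.0 (SD, n = 3), and the stage II mean was 10.81 ± 0.00488 (SD, n = 3).

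Stage II was 24.9-fold above control (log2 4.64 ± 0.29 SE), the 15th highest difference of 10949 genes. Stage I was 2.55-fold above control (log2 1.35 ± 0.29 SE, the 31st highest), and stage II was 9.79-fold above stage I (log2 3.29 ± 0.34 SE, the 6th highest). The stage I mean leaned on replicate 1. Without it the difference from control was 0.79 and that of stage II from stage I was 3.85. The SE come from a spread shared by the 3 groups, and the SD of Lifr was far wider in stage I than in the other groups. The SD over the 3 stage II arrays was the 12th smallest of all genes, against a median SD of 0.119.

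**Figure D1:**
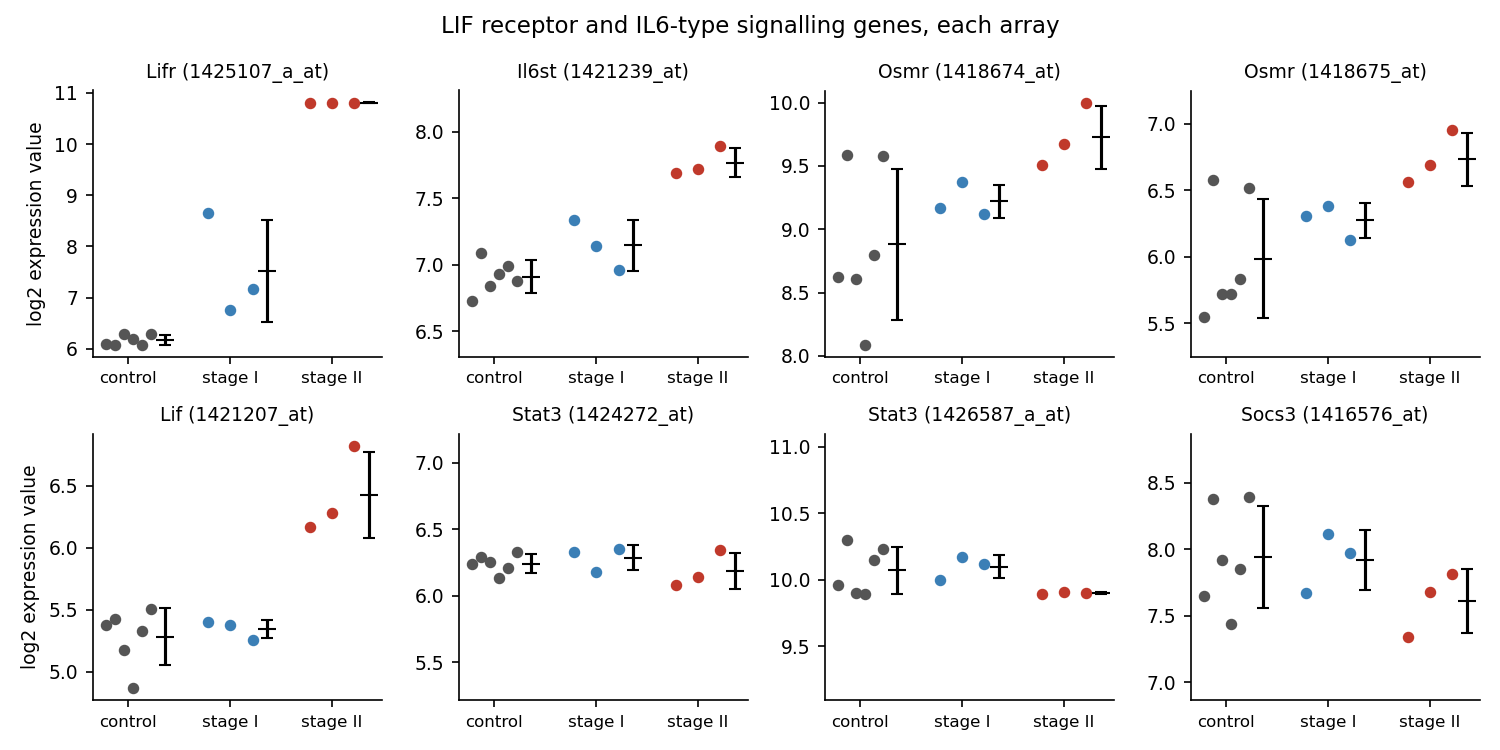
The log2 expression value of each member probe set on every array (points), with the group mean and SD (bar) for 6 control, 3 stage I and 3 stage II ovaries; panels have their own vertical ranges. Lifr steps up from 6.17 to 7.52 to 10.81, Il6st and Lif lie above all controls in stage II, and Stat3 and Socs3 overlap with controls.

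Il6st, which encodes the shared signal chain gp130, ran from 6.73 to 7.09 in controls with a median of 6.91. Stage I read 7.34, 7.14 and 6.96, and stage II read 7.69, 7.72 and 7.89. The stage II arrays lay above all others, while stage I replicate 3 lay among the controls. The difference of stage II from control was 1.8-fold (log2 0.85 ± 0.10 SE) and that of stage I was 1.18-fold (log2 0.23 ± 0.10 SE). Within stage I the order of the arrays by Il6st put replicate 1 highest, as for Lifr, but put replicate 3 lowest.

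Osmr, the oncostatin M receptor chain, was read by 2 probe sets that gave the same picture. The brighter ran from 8.09 to 9.59 in controls with a median of 8.71, and read 9.17, 9.37 and 9.12 in stage I and 9.51, 9.67 and 10.00 in stage II. The dimmer ran from 5.55 to 6.58 in controls with a median of 5.78, and read 6.31, 6.38 and 6.13 in stage I and 6.56, 6.69 and 6.95 in stage II. With both probe sets 2 of 3 stage II ovaries lay above all controls, and all 3 lay above all stage I ovaries. Stage II stood 1.79-fold (log2 0.84 ± 0.28 SE) and 1.68-fold (log2 0.75 ± 0.22 SE) above control. Stage I stood 1.26-fold and 1.22-fold above control and lay within the range of the controls. Without control replicates 1 and 4 the stage I difference of 0.34 in the brighter probe set was 0.07.

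Lif, the only ligand of the family among the genes measured, did not follow Lifr in stage I. It ran from 4.87 to 5.51 in controls with a median of 5.35. Stage I read 5.4, 5.38 and 5.26, inside that range, and stage II read 6.17, 6.28 and 6.82. The stage II ovaries lay above all other arrays by at least 0.66. Stage II was 2.2-fold above control (log2 1.14 ± 0.15 SE) and 2.11-fold above stage I (log2 1.07 ± 0.17 SE), while stage I differed from control by 1.05-fold (log2 0.07 ± 0.15 SE). Stage I replicate 1, at 8.65 for Lifr, read 5.4 for Lif, below the highest control.

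Stat3, the transcription factor of the route, showed no such step. Its brighter probe set ran from 9.89 to 10.30 in controls with a median of 10.06, and read 10.00, 10.17 and 10.12 in stage I and 9.89, 9.91 and 9.90 in stage II. The 3 stage II arrays sat at the bottom of the control range and below all of stage I. The difference of stage II from control was -0.17 ± 0.10 (SE, log2), and that from stage I was -0.20 ± 0.11. The dimmer probe set ran from 6.13 to 6.33 in controls with a median of 6.25, and read 6.33, 6.18 and 6.35 in stage I and 6.08, 6.14 and 6.34 in stage II. Its groups overlapped throughout, with a difference of -0.06 ± 0.07 (SE, log2) between stage II and control. The arrays read Stat3 RNA and say nothing of the phosphorylated protein.

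Socs3, the feedback inhibitor that STAT3 induces, was not above control in either stage. It ran from 7.44 to 8.39 in controls with a median of 7.88, and read 7.67, 8.11 and 7.97 in stage I and 7.34, 7.68 and 7.81 in stage II. All groups overlapped, and stage II replicate 1 was the lowest array of all. Stage II differed from control by -0.33 ± 0.20 (SE, log2) and stage I by -0.02 ± 0.20. Over the alternatives the stage II difference lay between -0.55 (array weights) and -0.19 (without stage II replicate 1).

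Counted with 1 probe set per gene (that of highest mean), 1 of 6 members, Lifr, lay above every control in all stage I arrays, where 2.23% of all genes did so, and 0 lay below (1.45% of all genes). In stage II 3 of 6, Lifr, Il6st and Lif, lay above every control, where 9.97% of all genes did so, and 0 lay below every control (12% of all genes). Between the stages 4 of 6 were higher in every stage II array (14.5% of all genes), the 3 just named and Osmr, and Stat3 was lower in every one (17.1% of all genes). The median difference of the 6 members from control was 0.15 in stage I and 0.85 in stage II, against -0.002 and -0.014 over all genes. The members were chosen on these contrasts, so nothing is read from these shares.

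The controls varied among themselves by different amounts. The range over 6 controls was widest in Osmr (1.5 in the brighter and 1.02 in the dimmer probe set), followed by Socs3 (0.95) and Lif (0.63). It was 0.41 and 0.20 in the brighter and dimmer Stat3 probe sets, 0.36 in Il6st and 0.21 in Lifr. Control replicates 2 and 6 were the highest pair in 6 of 8 member probe sets, those of Osmr, Lif, Stat3 and Socs3, and control replicate 4 was the lowest in 5 of them. Control replicate 4 also had the highest score of the luteal markers (0.96 for the mean log2 deviation from the control mean, against -0.17 and -0.47 in replicates 2 and 6). Its score of surface epithelium markers was -0.45, against 0.32 and 0.57. The other controls did not keep to this order. Replicate 3 had the lowest luteal score (-0.88), and replicate 1 had the lowest surface epithelium score (-0.97). Replicate 5 had -0.17 for luteal and 0.58 for surface epithelium markers. These scores were picked from those of all marker lists. The part of these tissues in the control pattern was not tested.

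The other genes of the route were taken from lists made with earlier results known, and they hold no member. Of 80 listed genes 50 were measured, and they were tested with limma, with adjustment over all 10949 genes and 0.05 as the threshold. In stage II 19 were called higher and 4 lower, where 9.81% of all genes were called higher and 11.2% lower (21.0% in either direction). In stage I 2 were called higher and 0 lower (0.192% of all genes higher), and stage II against stage I gave 9 higher and 2 lower (6.54% and 5.97% of all genes). Since the lists were made with such results known, nothing is read from these shares. The stage II count fell to 12 higher and 1 lower without stage II replicate 3, and the count between the stages fell to 7 higher and 0 lower without stage I replicate 3.

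Among receptors, kinases, STATs and inhibitors the stage II differences went both ways and stayed small. Of 20 such genes measured 4 rose and 4 fell, where 9.81% of all genes were called higher and 11.2% lower. The largest change was in Stat5a, a STAT that serves prolactin and growth hormone signals. Stat5a ran from 8.37 to 8.80 in controls and read 7.92, 8.29 and 8.51 in stage I and 7.77, 8.17 and 7.46 in stage II. Stage II lay below all controls, 1.76-fold lower (log2 -0.81 ± 0.16 SE, limma adjusted p = 0.0035), a call kept in every alternative. Its close paralog Stat5b fell as well (log2 -0.44 ± 0.11 SE, adjusted p = 0.017), a call lost without stage II replicate 3 (adjusted p = 0.098), and whether the probe sets share transcripts was not tested.

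Ptpn11, which encodes the phosphatase SHP2 that binds gp130, rose 1.29-fold in stage II (log2 0.37 ± 0.08 SE, adjusted p = 0.0049), also in every alternative. It read 8.12, 8.25 and 8.34 in stage II against 7.71 to 7.98 in controls. Between the stages it rose by 0.39 ± 0.09 (adjusted p = 0.014), a call lost (adjusted p up to 0.060) when replicate 3 of either stage was left out. Jak2, a kinase bound to gp130, rose by 0.26 ± 0.07 (SE, log2, adjusted p = 0.021), and leaving out stage II replicate 2 or 3 ended the call (adjusted p up to 0.079). Stat6, the STAT of IL4 signals, rose by 0.24 ± 0.05 (adjusted p = 0.0087), which ended without stage II replicate 3 (adjusted p = 0.050).

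Il6ra, the IL6-binding receptor chain, rose by 0.24 ± 0.08 (SE, log2, adjusted p = 0.040). That call was lost without any of 8 single arrays (control replicates 2, 3, 5 and 6, and replicates 2 and 3 of both stages, adjusted p up to 0.20), and with either rescaling of the arrays. Cntfr, the receptor chain for ciliary neurotrophic factor, was lower in stage II than in stage I (log2 -0.35 ± 0.09 SE, adjusted p = 0.021). Leaving out replicate 2 or 3 of stage I, or replicate 1 of stage II, ended the call (adjusted p up to 0.087). Among inhibitors Pias2 fell by 0.34 on the log2 scale (adjusted p = 0.021) and Socs5 by 0.21 (adjusted p = 0.028). Pias2 lost its call without stage II replicate 3 (adjusted p = 0.12), and Socs5 when any of 4 arrays was left out, replicates 1 and 3 of stage II and controls 2 and 5, with an adjusted p up to 0.11. Without the 3 arrays of highest Ovgp1, the stage II calls of Il6ra, Jak2, Stat5b and Socs5 ended too. In stage I 0 of these 20 genes were called by limma, where 0.192% of all genes were. At an unadjusted p under 0.05, 0 were higher and 1 lower, where 414 and 284 of all 10949 genes were. The largest stage I difference was that of Stat5a (-0.37, adjusted p = 0.73).

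Known STAT3 target genes rose in part. Of 15 measured, 5 rose and 0 fell in stage II (9.81% and 11.2% of all genes). The median difference was 0.16 against -0.014 over all genes. The largest was Cebpd, a transcription factor of the acute-phase response, which ran from 8.09 to 9.06 in controls and read 9.68, 9.15 and 9.13 in stage I and 10.43, 10.20 and 9.79 in stage II. Both stages lay above all controls. The stage II increase was 3.07-fold (log2 1.62 ± 0.22 SE, adjusted p = 0.00033), and the stage I difference was 0.80 ± 0.22 (adjusted p = 0.38).

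Fos, a subunit of the AP-1 factor that many other stimuli also induce, rose 2.62-fold (log2 1.39 ± 0.25 SE, adjusted p = 0.0026) with a stage I difference of 0.00 ± 0.25 (adjusted p = 1.0). Bcl2l1, which encodes the survival protein BCL-XL, rose 1.73-fold (log2 0.79 ± 0.08 SE, adjusted p = 2.1e-05). It read 9.73, 9.68 and 9.89 in stage II against 8.82 to 9.11 in controls and 9.04 to 9.19 in stage I, and it was also higher in stage II than in stage I (log2 0.67 ± 0.09 SE, adjusted p = 0.00084). The calls of Cebpd, Fos and Bcl2l1 against control held in every alternative. Vegfa, the vascular growth factor, rose by 0.58 ± 0.17 (adjusted p = 0.031), a call that any of 5 arrays ended when left out (control replicates 2, 3 and 5, stage II replicates 1 and 3), with an adjusted p up to 0.14. Hif1a, named after its values were seen as the fifth of these genes, rose by 0.36 ± 0.10 (adjusted p = 0.024), lost when stage II replicate 1 or 3 was left out (adjusted p up to 0.11), or the 3 arrays of highest Ovgp1.

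The other 10 targets were not called in stage II. Myc differed by -0.04 (adjusted p = 0.89), Mcl1 by 0.02 (adjusted p = 0.89) and Bcl3 by 0.21 (adjusted p = 0.43). Wider differences were those of Pim1 (0.33, adjusted p = 0.26) and Il4ra (-0.32, adjusted p = 0.22). These genes were named after their values were seen. In stage I 0 of 15 passed limma's threshold, where 0.192% of all genes did. At an unadjusted p under 0.05, 1 was higher and 1 lower, where 414 and 284 of all 10949 genes were. Bcl6, a transcriptional repressor, had a stage I difference of -0.82 (adjusted p = 0.29).

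**Figure D2:**
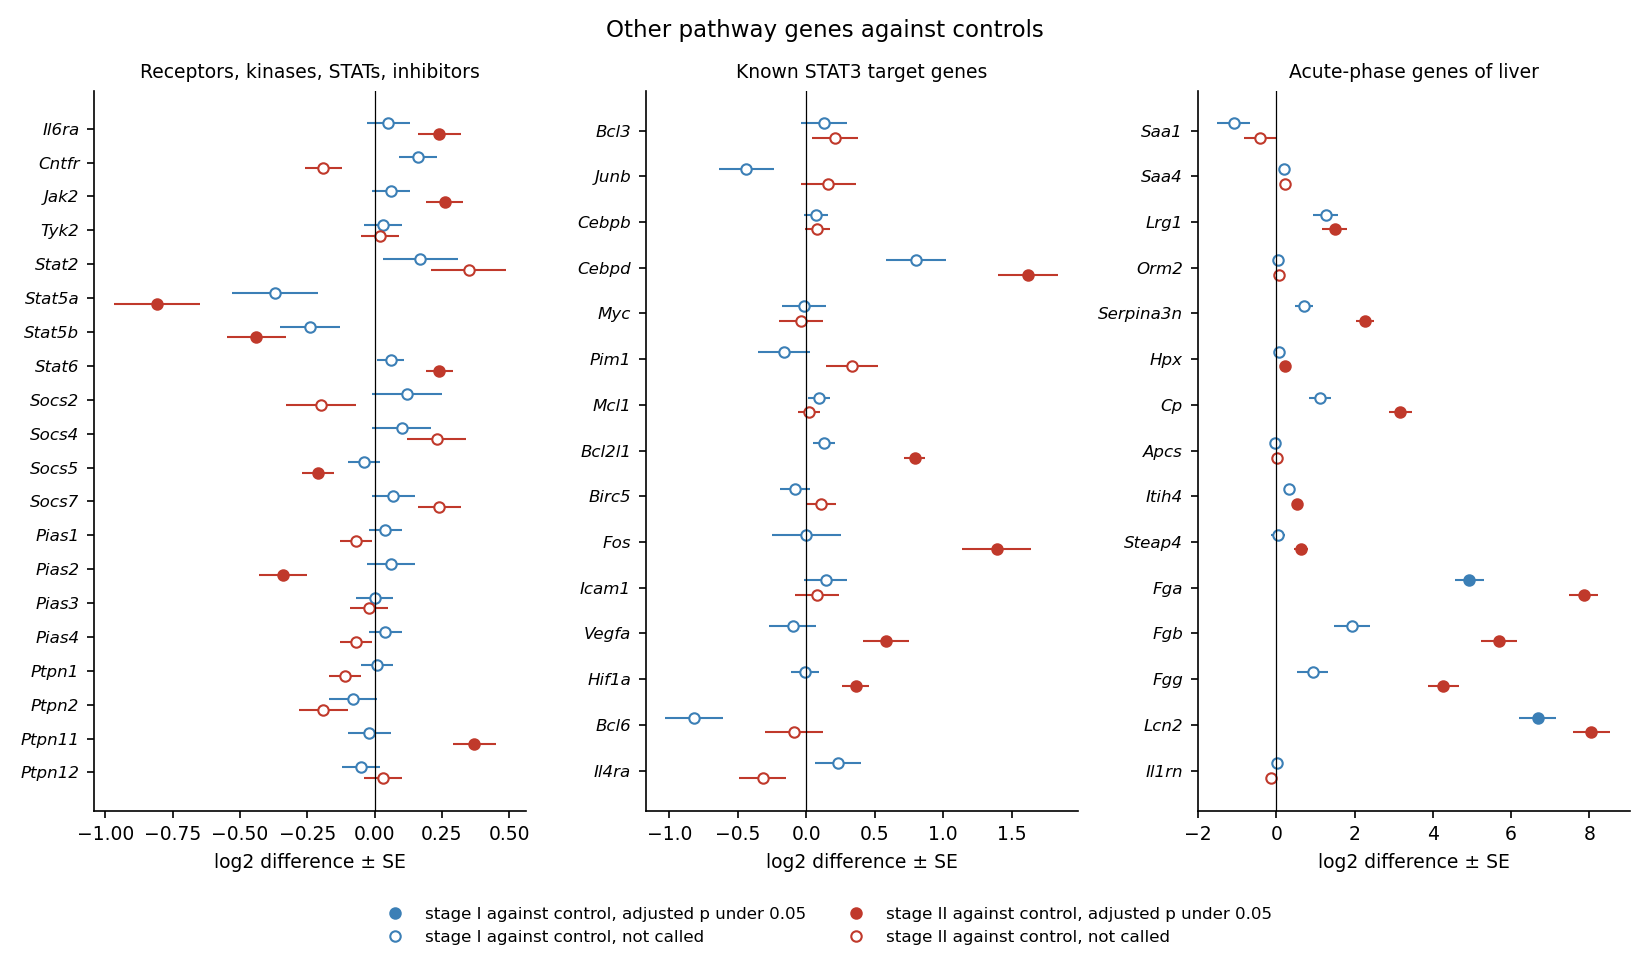
Log2 difference from control with its SE for 50 other genes of the route, in stage I (blue) and stage II (red), with filled points where limma's adjusted p was under 0.05; the horizontal scales differ between panels. Receptors, kinases, STATs and inhibitors stay between -0.81 and 0.37 in stage II, while acute-phase genes reach 8.05.

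Acute-phase genes, which IL6-type cytokines and STAT3 switch on in liver, held 10 of the 23 stage II calls. Of 15 measured, 10 rose and 0 fell in stage II (9.81% and 11.2% of all genes). In stage I 2 rose (0.192% of all genes), Lcn2 and the fibrinogen gene Fga. Lcn2, lipocalin 2, an iron-scavenging secreted protein, ran from 5.06 to 7.12 in controls and read 13.70, 12.34 and 12.17 in stage I and 14.14, 14.08 and 14.10 in stage II. It stood far above every control in both stages, by 6.68 ± 0.48 (SE, log2, adjusted p = 4e-05) in stage I and 8.05 ± 0.48 (adjusted p = 7.3e-07) in stage II. Fga, the alpha chain, rose by 4.93 ± 0.37 in stage I (adjusted p = 4.6e-05) and by 7.86 ± 0.37 in stage II (adjusted p = 1.2e-07). Fgb, the fibrinogen beta chain, ran from 3.91 to 4.17 in controls and read 7.32, 5.71 and 4.92 in stage I and 8.92, 9.37 and 10.88 in stage II (51.1-fold, log2 5.68 ± 0.46 SE, adjusted p = 5.3e-06). Fgg, the gamma chain, rose 19.2-fold in stage II (log2 4.27 ± 0.40 SE, adjusted p = 1.6e-05). Control values of the fibrinogen genes lay near the lowest values of the table (2.69), so these folds are ratios of deposited values.

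Cp, the copper-binding plasma protein ceruloplasmin, ran from 8.26 to 9.18 in controls. It read 10.88, 9.47 and 9.34 in stage I and 12.07, 11.88 and 11.91 in stage II, above all controls in both stages. The stage II increase was 9.01-fold (log2 3.17 ± 0.29 SE, adjusted p = 1.2e-05), and the stage I difference was 1.12 ± 0.29 (adjusted p = 0.31). Serpina3n, a secreted protease inhibitor, rose 4.83-fold (log2 2.27 ± 0.23 SE, adjusted p = 2.7e-05). Lrg1, a secreted leucine-rich glycoprotein, rose 2.81-fold (log2 1.49 ± 0.32 SE, adjusted p = 0.0067), and its highest array was stage I replicate 1, at 8.14. Cp, Serpina3n and Lrg1 were named for stage II after their values were seen.

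Other acute-phase genes did not pass the test. Saa1, which encodes serum amyloid A, had a stage II difference of -0.41 (adjusted p = 0.55), and Orm2, an orosomucoid gene, had 0.07 (adjusted p = 0.49). Both were named after their values were seen. Of the 10 calls, those of Steap4 and Hpx, named after their values were seen, ended when stage II replicate 3 was left out (adjusted p up to 0.16 and 0.17 over single arrays). In stage I replicate 1, the array with the highest Lifr of its stage, Fga, Fgb, Fgg, Cp, Lrg1, Serpina3n and Lcn2 were each at their highest among the 3 stage I arrays. Hpx, Apcs, Itih4 and Steap4 were highest there too. Saa1 was at its lowest there, at 4.40 against 5.82 and 6.08. So were Saa4 (4.73 against 4.84 and 4.89) and Il1rn (5.64 against 5.78 and 5.85), and Orm2 lay between. The genes of this comparison within stage I were named after their values were seen.

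Many cell type markers differed from control in stage II. In stage I no marker of any list was called by limma, where 0.192% of all genes were. In stage II 5 of 6 macrophage markers rose (9.81% of all genes), led by Cd14 (log2 2.50, limma adjusted p = 6.2e-06). Their scores were 0.70 to 1.04 against -0.14 to 0.19 in controls. In stage I the macrophage score was 0.95, 0.07 and 0.46 in replicates 1, 2 and 3, in the order of Lifr. This list was named after all scores were seen. T and B cell, theca and oocyte scores had the same order over these arrays. Scores of the remaining marker lists, surface epithelium and granulosa among them, did not. Between the stages only Cd14 of these markers was called (log2 1.64, limma adjusted p = 0.0017). The others differed by 0.02 (Csf1r) to 0.21 (Fcgr1). Krt8, a keratin of simple epithelia, rose 12-fold in stage II as 1 of 3 surface epithelium markers (scores 1.12 to 1.64 against -0.97 to 0.58). The other two were not called, Krt19 with a difference of 0.96 (adjusted p = 0.13) and Krt7 with -0.40 (adjusted p = 0.50). All 5 granulosa markers (scores -1.59 to -0.47 against -0.34 to 0.30), all 5 oocyte markers (-1.24 to -0.52 against -0.20 to 0.26) and all 6 fibroblast markers (-0.65 to -0.39 against -0.09 to 0.03) fell. Of all genes 11.2% were called lower in stage II. Stage I scores ran from -0.06 to 0.30 for granulosa, -0.21 to 0.01 for oocyte and -0.11 to 0.04 for fibroblast markers.

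Of 6 endothelial markers 0 were called by limma in stage II (1 higher and 0 lower at an unadjusted p under 0.05, scores 0.10 to 0.30 against -0.23 to 0.25), and of 6 neutrophil markers Camp was the 1 called. Of 9 T and B cell markers only Ptprc, found on all leukocytes, was called. These counts stand beside 21.0% of all genes called in either direction in stage II, and nothing is read from them. Of 4 hepatocyte markers Apoa1, the main apolipoprotein of HDL, rose 9.26-fold in stage II (log2 3.21, adjusted p = 4.4e-05), and the score was 0.72 to 1.26 against -0.12 to 0.18 in controls. Alb, albumin, read 4.70 to 4.98 in stage II against 4.59 to 4.91 in controls. The hepatocyte score leaned on Apoa1, since Alb (0.04), Apoa2 (0.12) and Cyp3a11 (0.23) were not called (adjusted p = 0.82, 0.48 and 0.12). The part of these cell types in the levels of Lifr, Lif, Il6st and the acute-phase genes was not tested.

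**Figure D3:**
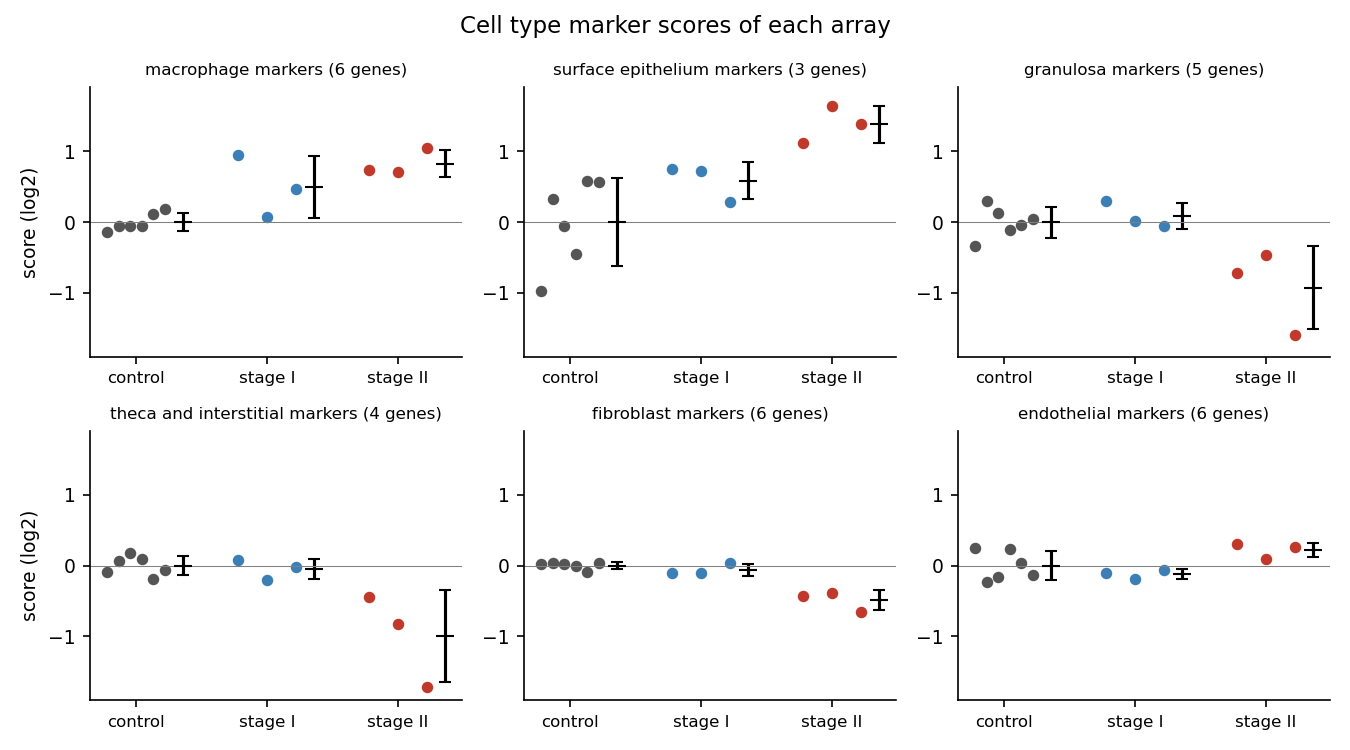
Mean log2 deviation from the control mean over the measured markers of 6 cell types, for each array (points), with group mean and SD (bar). Mean macrophage and surface epithelium scores are highest in stage II, where granulosa, theca and fibroblast scores are lowest. Of the 3 surface epithelium genes only Krt8 was called in stage II. Among macrophage markers only Cd14 was called between the stages.

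The genes whose pattern over the 12 arrays was nearest to that of Lifr were sought by the root mean square (RMS) of the difference between log2 deviations from the control mean. The nearest was Gldc, glycine decarboxylase of the mitochondrial glycine cleavage system, with an RMS of 0.273. It read 7.07, 5.38 and 5.39 in stage I and 8.60, 8.59 and 9.17 in stage II, against 4.02 to 4.58 in controls. Ldhd, a D-lactate dehydrogenase (0.368), Slc16a6, a monocarboxylate transporter family member (0.439), the plasma protein gene Apoh (0.460) and Pdzk1ip1 (0.463) followed. In each of these genes stage I replicate 1 was the highest of its stage. They were chosen for likeness to Lifr over these arrays, so the shared order follows largely from the choice.

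For Lif, with the second widest range of group means, the nearest gene was Tbc1d1, a regulator of glucose transporter traffic, with an RMS of 0.109. It read 8.76, 8.61 and 8.5 in stage I and 9.62, 9.71 and 9.92 in stage II, against 8.26 to 8.72 in controls. Card19 (0.146) and Tnfrsf23, a decoy receptor of the TNF family (0.164), came next. The nearest genes of Lif were higher in stage II than in every other array, as Lif was, which again follows largely from how they were chosen.

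**Figure D4:**
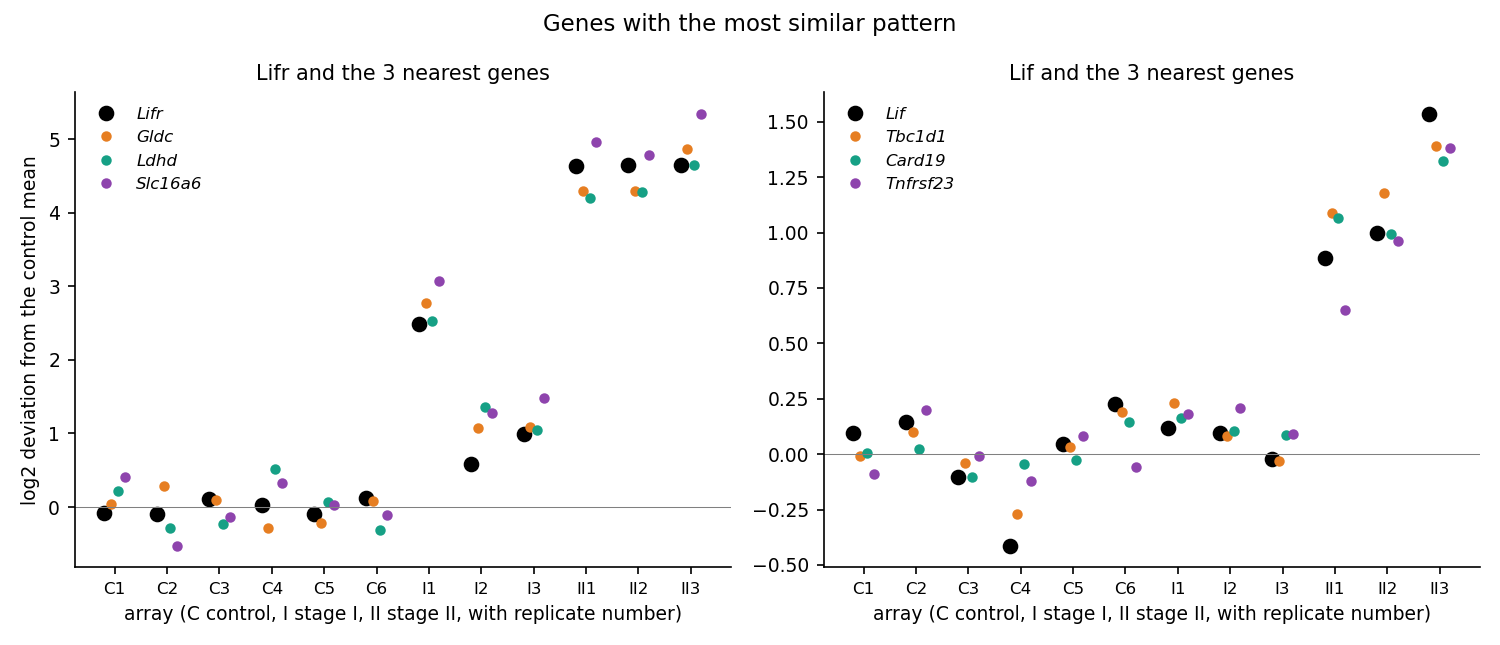
Log2 deviation from the control mean on each of 12 arrays for Lifr (left) and Lif (right), in black, and their 3 nearest genes by RMS difference. In stage I, Lifr and the genes like it are highest in replicate 1, whereas Lif and its nearest genes stay near 0 until stage II. The genes were chosen for this likeness.

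By order on the chromosomes in the RefSeq gene table, Osmr and Lifr are direct neighbours among protein-coding genes on chromosome 15. Rictor, on the other side of Osmr, had a stage II difference of -0.20 (adjusted p = 0.079), and C9, beyond it, had 0.14 (adjusted p = 0.21). Past Lifr, Gdnf had -0.56 (adjusted p = 0.085), Wdr70 had 0.04 (adjusted p = 0.80) and Nup155 had -0.02 (adjusted p = 0.89). None of these 5 measured neighbours was called by limma in stage II, where 21.0% of all genes were called in either direction. Some neighbours of other members were called. Near Il6st, Ddx4 had -0.53 (adjusted p = 0.026) and Plpp1 had 0.53 (adjusted p = 0.032). Uqcr10 near Lif had 0.27 (adjusted p = 0.046), and Afmid near Socs3 had 0.44 (adjusted p = 0.0025). Stat3 lies beside Stat5a on chromosome 11, with Stat5b next on the same side, and Stat5a and Stat5b fell in stage II. Cavin1, on the other side of Stat3, had -0.05 (adjusted p = 0.66). Lif lies beside Osm on chromosome 11, and Osm and the other listed ligands of the family were not analysed here.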

How the data were processed

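The deposited values are log2 expression values, 1 per probe set and array. The authors' summary and normalization method is "not given in the sources used here", and the log2 scale was settled from the values (2.69 to 14.4). Scanner signals were not used, so signal over background is unknown, and the number of arrays limits the precision. The platform annotation paired 14674 of 16376 probe sets with 1 gene symbol, and the others were left out. A gene was represented by its probe set with the highest mean, which gave 10949 genes. limma 3.58.1 in R 4.3.3 fitted 1 mean per group over the 12 arrays (9 residual and 3.13 prior degrees of freedom), with Benjamini-Hochberg adjustment over all genes. Member probe sets took differences and SE from the same fit over every probe set. The members and lists were chosen with earlier results of these data known. From each list the genes named were up to 4 called with the largest change, or 2 where none was called, and the 5 nearest in pattern to the 2 members of widest range. The text names part of them. Others are said to be chosen after their values were seen. Marker and neighbour genes are named for their list or place. A score is the mean log2 deviation from the control mean. The fits were tested on simulated data. P-values set a difference between groups against the spread between samples within groups, shared over the 3 groups.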

Additional observations from a re-analysis of the deposited data

How the results depend on the processing

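Of 396 member differences under the alternatives, 394 lay within 1 SD of the reported value, the SD being the residual SD of the gene in the fit. The exceptions were those of Lifr without stage I replicate 1, 0.79 for stage I against control and 3.85 for stage II against stage I. Some alternatives cannot change a difference of group means, such as another prior or leaving out an array of the third group. The count of 394 is therefore partly fixed in advance. With single arrays left out in turn, Lifr ran from 0.79 to 1.74 in stage I, from 4.62 to 4.66 in stage II and from 2.91 to 3.85 between the stages. Signs turned only in stage I differences near 0, those of Lif (in 2 of 22 alternatives), Stat3 (4) and Socs3 (3). The count of other pathway genes called was 2 in stage I in each fit without 1 array. It ran from 13 to 25 in stage II, against 23, and from 7 to 13 between the stages, against 11. Between the stages it was 7 with only the groups compared, 20 with array weights and 6 when the 3 arrays of highest Ovgp1 were left out. Named genes kept their calls in all alternatives run for 2 of 2 in stage I, 13 of 23 in stage II and 6 of 11 between the stages. The call of Fos between the stages ended when those 3 arrays were left out (adjusted p = 0.051). Where values moved, the cause was not tested. Replicate numbers in the titles were not shown to pair samples, since deviations of same-numbered arrays correlated between -0.132 and 0.204, and in 5 of 18 comparisons of an array with another group the best match had its own number. A block for replicate number gave a stage II count of 15, and Lifr differed by 4.66. Signal over background was not measured, which limits low levels such as those of Lif.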

Other observations

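Genes outside the members shared the order of the controls. Control replicates 2 and 6, the highest pair in Osmr, Lif, Stat3 and Socs3, read 8.86 and 9.06 for Cebpd, against 8.09 to 8.59 in the other controls. They read 7.93 and 8.08 for Il4ra, the IL4 receptor chain, against 7.30 to 7.64. These genes were chosen after their values were seen. Lifr did not share this order, with 6.08 and 6.29 in these arrays.

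Stat3, like Lifr, had a small SD over the 3 stage II arrays (0.0093, the 46th smallest of 10949 genes), while Osmr (0.251), Lif (0.345) and Socs3 (0.243) were above the median SD of 0.119. Stage II replicate 3 had the highest value of its stage in Osmr, Lif and Il6st. The same held for Socs3 (7.81) and the dimmer Stat3 probe set (6.34). Its granulosa (-1.59), theca (-1.71), oocyte, luteal, fibroblast, smooth muscle and adipocyte scores were the lowest of the stage. Its macrophage (1.04), T and B cell, neutrophil and hepatocyte (1.26) scores were the highest. This array was picked after its values were seen.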
